A study of Mus musculus with 27 samples.

Results

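A set of 8 genes that the nuclear receptor PPAR-alpha is known to switch on was followed through mouse intestine after irradiation and treatment with CBLB502. They were chosen by name: Cpt1a, Pdk4, Angptl4, Plin2, Acadl, Ehhadh, Acot1 and Creb3l3. All 8 of 8 were found among the 55401 genes of the expression table. Of these, 7 reached the level set for testing, an FPKM (fragments scaled to gene length and to the mapped total) of at least 1 in at least 3 libraries, and Acot1 did not. Ketogenesis is represented by other genes, described further on, since none of the 8 is an enzyme of ketone body formation itself.

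The intestines came from male wild-type C57BL/6 mice, 6 to 8 weeks old, in 9 groups of 3 libraries. 60Co gamma rays were given at 72 R per min. Untreated controls were compared with mice sampled 6 h after 6 Gy, 24 h after 6 Gy, and 6 h, 24 h or 3 d after 15 Gy. Mice of 3 groups received CBLB502, a flagellin-derived agonist of Toll-like receptor 5, at a dose of 0.2 mg per kg, by itself or ahead of 6 Gy or 15 Gy, and were sampled at 24 h; for 15 Gy the interval before irradiation was 0.5 h. The deposited design counts 7 groups of 10 mice and names a PBS control, whereas the labels give 9 groups and an untreated control. Which stretch of intestine was taken is not given in the sources used here, nor whether each library is 1 mouse, so p-values measure the spread between libraries. All groups share the 3 control libraries as their reference.

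PPAR-alpha is a receptor for fatty acids and their derivatives that pairs with a retinoid X receptor and binds DNA near the genes of fat use. In the fasted liver it drives fat oxidation and ketone body formation, and in the small intestine it is active in enterocytes, the absorptive cells that take up dietary fat. Long-chain fatty acids enter mitochondria through the carnitine shuttle, where CPT1 is the gate, and very long chains are shortened in peroxisomes.

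Total counts ran from 57.4 to 87.1 M per library. The 10 enterocyte markers were Vil1, Alpi, Sis, Lct, Treh, Slc5a1, Apoa1, Apoa4, Mttp and Anpep. They were summed as they stand, so the most abundant weigh most. They summed to between 105000 and 129000 counts per 1 M (CPM, scaled by TMM) in control. At 6 h they summed to 55000 to 62100 CPM after 6 Gy and to 151000 to 172000 CPM after 15 Gy. In the 6 libraries taken 24 h after 6 Gy they summed to 50300 to 69300 CPM, a range that takes in that at 6 h after 6 Gy. These 6 libraries stood apart by other markers. Their exocrine pancreas markers reached 74.6 to 6420 CPM without CBLB502 and 214 to 1980 with it, against 9.81 to 11.2 in control. Fibroblast markers in these 6 libraries ran from 30.4 to 44.1 CPM, against 0.562 to 3.07. Of 8 adipocyte markers 1 passed the filter and 5 were at 0 in control; of 8 hepatocyte markers 2 passed and 6 were at 0. A clock score, the mean log2 CPM of 3 genes such as Arntl minus that of 6 such as Dbp, centred over all libraries, also differed between groups. It ran from -2.93 to -2.22 in control, from 2.13 to 3.22 at 6 h after 6 Gy and from -3.22 to -1.51 at 6 h after 15 Gy. In bulk tissue, fewer cells of a type and less RNA per cell cannot be told apart.

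The genes lie on GRCm38 at chr19:3322334-3385733 (Cpt1a), chr6:5483351-5496309 (Pdk4), chr17:33773750-33781830 (Angptl4), chr4:86648386-86670060 (Plin2), chr1:66830839-66863277 (Acadl), chr16:21761287-21787807 (Ehhadh), chr12:84009490-84018371 (Acot1) and chr10:81084324-81098874 (Creb3l3). Cpt1a and Acot1 are on the plus strand and the others on the minus strand. PPAR-alpha with its partner is known to favour 2 copies of AGGTCA separated by 1 base. RefSeq windows of 250 bases before the start (GRCm38.p6) matched 7 of the 8 genes, with 8 windows because Creb3l3 has a second start. Angptl4 had no matched window, so it was not searched for either motif. AGGTCA, read on both strands, stood in 3 of the 8 windows, against 14% of 32851 windows of all genes. The paired motif with at most 2 mismatches stood in the windows of Plin2 and of the second Creb3l3 start, against 3.24% of all windows, and these matches contain the AGGTCA counted above. No binding was measured here, so a match is a description of the letters.

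The 3 matches are printed 5′ to 3′ on the gene's strand, since Plin2, Creb3l3 and Cpt1a were all lower at 6 h after 6 Gy than at 6 h after 15 Gy. The window of Acadl is added because Acadl differed the other way. Pdk4, which was also lower at 6 h after 6 Gy than after 15 Gy, has 0 AGGTCA and 0 paired motifs in its window, as has the window of the first Creb3l3 start. The windows of Ehhadh and Acot1 also hold 0 AGGTCA and 0 paired motifs. Because the printed windows were picked by the direction of change in these data, they cannot show a link of motif to response. Bases in annotated exons were cut from the Cpt1a and Plin2 windows. The Plin2 stretch is chr4:86670061-86670309 on the minus strand, upstream of the gene, and its capitals mark the paired motif, on the opposite strand. The Creb3l3 stretch is chr10:81092780-81092808 on the minus strand, inside the gene and intronic except for 2 exon bases, and its capitals mark the paired motif. The Cpt1a stretch is chr19:3323051-3323284 on the plus strand, inside the longest gene model and upstream of the main start, and its capitals mark AGGTCA on the opposite strand. The Acadl stretch is chr1:66863310-66863559 on the minus strand, upstream of the gene, and holds no AGGTCA.
Plin2: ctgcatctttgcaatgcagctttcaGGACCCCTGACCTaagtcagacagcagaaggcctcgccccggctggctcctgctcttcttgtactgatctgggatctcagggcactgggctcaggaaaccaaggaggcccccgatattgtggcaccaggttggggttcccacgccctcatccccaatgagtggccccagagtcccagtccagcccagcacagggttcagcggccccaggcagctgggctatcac
Creb3l3: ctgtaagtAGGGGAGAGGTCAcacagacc
Cpt1a: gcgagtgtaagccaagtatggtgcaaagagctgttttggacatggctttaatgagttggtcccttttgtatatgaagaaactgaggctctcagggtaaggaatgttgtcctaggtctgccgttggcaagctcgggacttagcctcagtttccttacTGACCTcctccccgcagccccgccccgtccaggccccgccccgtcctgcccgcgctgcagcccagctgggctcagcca
Acadl: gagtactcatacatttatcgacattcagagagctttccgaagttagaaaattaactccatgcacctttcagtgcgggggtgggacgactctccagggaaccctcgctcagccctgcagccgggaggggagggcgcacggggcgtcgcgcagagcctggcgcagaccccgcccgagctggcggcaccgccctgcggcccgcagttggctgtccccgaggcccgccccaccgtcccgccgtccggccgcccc

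Per length, Creb3l3 was the highest of the 8 genes, with a mean level of 263 FPKM over all libraries. Acadl followed at 88.2 FPKM, Ehhadh at 36.8, Pdk4 at 11.7, Plin2 at 10.2, Angptl4 at 9.39, Cpt1a at 6.13 and Acot1 at 0.209. The genes did not share 1 order of groups, as the plot of levels by group shows. By CPM, the lowest group mean of Cpt1a, Pdk4, Angptl4, Plin2 and Ehhadh was at 6 h after 6 Gy. For Ehhadh that mean of 82.5 CPM was close to 83.7 at 3 d after 15 Gy and 88 in control, with overlapping libraries. The share of all genes that were lowest in that group is not given here. Acadl was lowest in control.

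**Figure D1:**
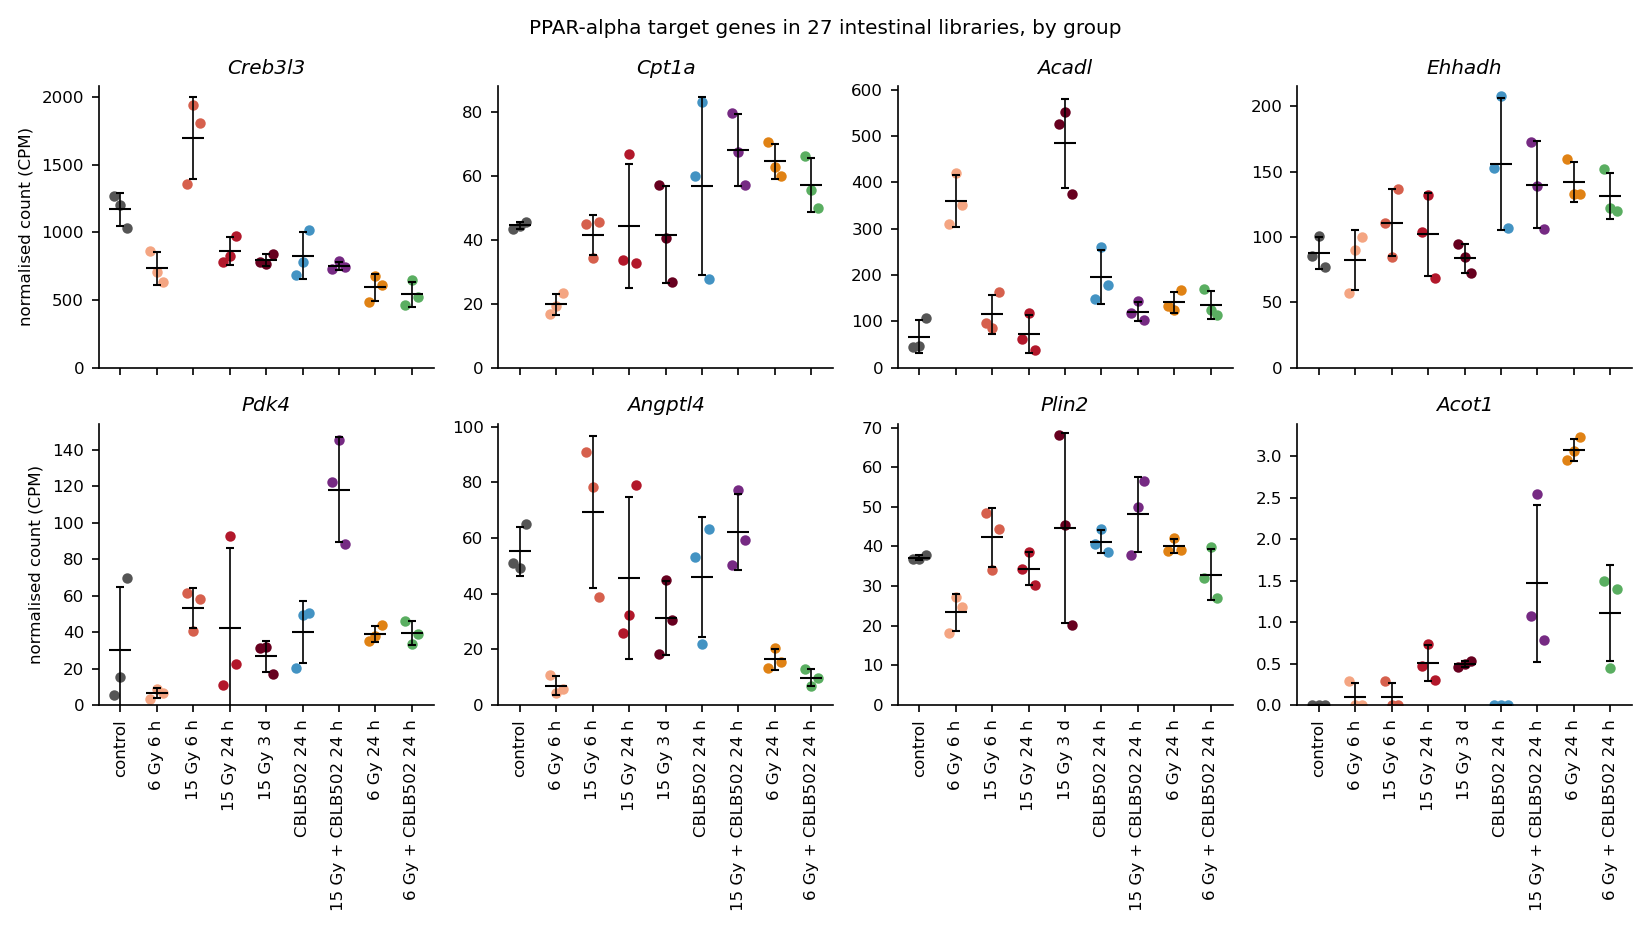
Normalised counts (CPM, linear axes from 0) of the 8 genes in the 9 groups; each point is a library, and the horizontal mark and bar are the mean and SD of 3 libraries, cut at 0 where the bar would go below it. Acadl sits between 310 and 420 CPM at 6 h after 6 Gy and between 374 and 552 CPM at 3 d after 15 Gy, above every control library, while Angptl4 sits between 4.33 and 10.9 CPM at 6 h after 6 Gy.

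Creb3l3 encodes CREB-H, a membrane-bound transcription factor of liver and small intestine that acts with PPAR-alpha on fasting genes. Control libraries held 1270, 1200 and 1030 CPM, and the libraries at 6 h after 15 Gy held 1360, 1940 and 1810 CPM. The 15 Gy libraries at 6 h all lay above the controls, with a log2 fold change of 0.55 ± 0.17 (SE, n = 3 against 3; adjusted p = 0.0215, edgeR's quasi-likelihood F test with Benjamini-Hochberg adjustment, the test used throughout). The 6 Gy libraries at 6 h held 864, 707 and 629 CPM, all below control. That difference was -0.67 ± 0.17 (adjusted p = 0.00566 in edgeR), and the test of 15 Gy against 6 Gy at 6 h gave 1.22 ± 0.17 (adjusted p = 9.32e-06 in edgeR). By 24 h after 15 Gy Creb3l3 was at 782, 822 and 976 CPM, which was lower than at 6 h by the same test (-0.98 ± 0.17, adjusted p = 0.00018). All 6 treated groups apart from 15 Gy at 6 h that were tested against control had every library below it. Of these, 15 Gy at 3 d (-0.55, adjusted p = 0.0195), 15 Gy with CBLB502 (-0.64, adjusted p = 0.0145) and 6 Gy at 24 h (-0.98, adjusted p = 0.000363), each by edgeR, passed the test as 6 Gy at 6 h did. CBLB502 alone (-0.50, adjusted p = 0.0917) and 15 Gy at 24 h (-0.44, adjusted p = 0.138) did not pass in edgeR. Enterocyte markers were also high at 6 h after 15 Gy and low in both 6 Gy groups without CBLB502, by the sums given above, and their part in the Creb3l3 levels was not tested. The rise at 6 h after 15 Gy no longer passed with the compared groups fitted alone (0.52, adjusted p = 0.11), or without control replicate 3 or either of 15 Gy 6 h replicates 2 and 3.

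Cpt1a encodes the liver-type CPT1, which commits long-chain fatty acids to mitochondrial oxidation. It stood at 43.5, 44.3 and 45.5 CPM in control and at 16.8, 19.2 and 23.3 CPM at 6 h after 6 Gy, with no overlap. Its log2 fold change there was -1.17 ± 0.32 (adjusted p = 0.00823, edgeR). Libraries at 6 h after 15 Gy held 45, 34.4 and 45.5 CPM, above every 6 Gy library, and the difference between doses was 1.07 ± 0.32 (adjusted p = 0.00904, edgeR). The highest mean was with 15 Gy and CBLB502, where libraries held 79.7, 67.4 and 57.2 CPM, all above control, at 0.61 ± 0.31 (adjusted p = 0.189, edgeR), which did not pass. The spread was wide in the CBLB502 group (60, 83 and 27.6 CPM).

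Acadl encodes long-chain acyl-CoA dehydrogenase, which takes the first step of mitochondrial beta-oxidation, and among the 7 tested genes it had the largest rise against control. Control libraries held 44.6, 47.5 and 108 CPM. After 6 Gy they held 310, 420 and 350 CPM, at 6 h, a log2 fold change of 2.43 ± 0.38 (adjusted p = 5.89e-05, edgeR). At 3 d after 15 Gy they held 527, 552 and 374 CPM, a log2 fold change of 2.86 ± 0.39 (adjusted p = 1.3e-05, edgeR). Between these, at 24 h after 15 Gy, Acadl was at 61.3, 117 and 37.8 CPM, overlapping control. The rise from 24 h to 3 d was 2.75 ± 0.39 (adjusted p = 2.29e-05, edgeR). The 15 Gy libraries at 6 h (95.7, 85.1 and 164 CPM) lay below every 6 Gy library, at -1.65 ± 0.37 (adjusted p = 0.00112, edgeR).

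With CBLB502 alone Acadl held 147, 261 and 179 CPM, all above control, and rose by 1.55 ± 0.37 on the log2 scale (adjusted p = 0.018, edgeR). That call was lost without control replicate 1 (adjusted p = 0.104), control replicate 2 (0.0823) or CBLB502 replicate 2 (0.0944), and with the 2 groups fitted alone (0.135). In the 6 Gy group at 24 h it held 133, 124 and 167 CPM and passed at 1.08 ± 0.37 (adjusted p = 0.028, edgeR), a call lost without either of control replicates 1 and 2, either of 6 Gy replicates 1 and 3, with the groups fitted alone or without the filter. At 3 d after 15 Gy, the highest group of Acadl, the clock score ran from 1.69 to 3.07. In 15 Gy with CBLB502 the clock score ran from 0.76 to 3.17 and Acadl held 117, 143 and 102 CPM. The part of the clock score in the Acadl levels was not tested. Acadl overlaps 2 other annotated genes, of which the higher averaged 0.355 CPM against 188 for Acadl.

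Ehhadh encodes the bifunctional enzyme of peroxisomal beta-oxidation. Its libraries ran from 56.9 to 208 CPM, and every neighbouring pair of groups in the order of means overlapped. Control libraries held 85.7, 101 and 77 CPM and those at 24 h after 6 Gy held 160, 133 and 133 CPM, a rise of 0.69 ± 0.26 on the log2 scale (adjusted p = 0.0462, edgeR). Leaving out any 1 of these 6 libraries moved that adjusted p to between 0.0557 and 0.143. With CBLB502 alone it held 153, 208 and 107 CPM, all above control, at 0.83 ± 0.26 (adjusted p = 0.0663, edgeR), which did not pass.

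Pdk4 encodes a kinase that shuts pyruvate out of the citric acid cycle and so spares glucose when fat is burned. Control libraries spread from 5.38 and 15.6 to 69.6 CPM. The libraries at 6 h after 6 Gy held 3.53, 8.96 and 6.83 CPM, overlapping the lowest control, at -2.23 ± 0.71 (adjusted p = 0.0223, edgeR). Without control replicate 3, which held the 69.6 CPM, the value was -0.70 and the adjusted p 0.431. Without 6 Gy 6 h replicate 1 the adjusted p was 0.0867 and without replicate 3 it was 0.0612. The libraries at 6 h after 15 Gy (61.3, 40.8 and 57.9 CPM) all lay above those at 6 h after 6 Gy, at 3.05 ± 0.73 (adjusted p = 0.00194, edgeR). With 15 Gy and CBLB502 Pdk4 held 122, 145 and 88.1 CPM, its highest group and above every control library. The difference from control was 1.97 ± 0.70 with an adjusted p of 0.0559 in edgeR, just short of the threshold of 0.05. DESeq2 (adjusted p = 0.0143) and edgeR without control replicate 3 (3.48, adjusted p = 0.00292) called it. Against 15 Gy alone at 24 h, whose libraries held 11.1, 92.7 and 22.7 CPM, the value was 1.49 ± 0.69 (adjusted p = 0.636, edgeR).

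Angptl4 encodes a secreted inhibitor of lipoprotein lipase that fasting induces. It held 51.1, 49.3 and 65.2 CPM in control, and 10.9, 4.33 and 5.63 CPM at 6 h after 6 Gy. The groups did not overlap, and the log2 fold change of -2.99 ± 0.48 (adjusted p = 8.37e-05, edgeR) was the largest fall among the 7 tested genes in that comparison. At 24 h after 6 Gy it held 13.2, 20.5 and 15.4 CPM, again below every control, at -1.75 ± 0.46 (adjusted p = 0.00665, edgeR). With CBLB502 before 6 Gy it held 13, 6.97 and 9.63 CPM, all below 6 Gy alone, at -0.73 ± 0.45 (adjusted p = 1, edgeR). After 15 Gy it held 91, 78.2 and 38.8 CPM at 6 h, and the doses differed by 3.32 ± 0.49 (adjusted p = 1.38e-05, edgeR). At 3 d after 15 Gy it held 18.4, 45 and 30.7 CPM, below every control, at -0.81 ± 0.45 (adjusted p = 0.188, edgeR), which did not pass.

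Plin2 encodes the protein that coats lipid droplets. Its controls were close together (36.8, 36.9 and 37.9 CPM), and the libraries at 6 h after 6 Gy (18.2, 27.2 and 24.7 CPM) all lay below them. In edgeR that difference was -0.67 ± 0.27 with an adjusted p of 0.0704, and in DESeq2 the adjusted p was 0.0444. Between doses at 6 h, where 15 Gy held 48.5, 34.1 and 44.4 CPM, the value was 0.86 ± 0.27 (adjusted p = 0.0147, edgeR), lost without 6 Gy 6 h replicate 1 (0.0748) or 15 Gy 6 h replicate 1 (0.0558). The widest spread was at 3 d after 15 Gy, with 68, 45.4 and 20.3 CPM. A pseudogene, Gm12551, shares 4.89% of the 50-base windows of the Plin2 transcript.

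Acot1 encodes a cytosolic thioesterase that releases fatty acids from coenzyme A. It had no count in 10 of 27 libraries and from 17 to 254 counts in the other 17, so it was far below the other genes. It was at 0 in all control and CBLB502 libraries and at 0.287, 0 and 0 CPM at 6 h after either dose. After 15 Gy it held 0.47, 0.733 and 0.304 CPM at 24 h, at 3 d 0.457, 0.498 and 0.534 CPM, and with 15 Gy and CBLB502 1.07, 2.55 and 0.79 CPM. The highest group was 6 Gy at 24 h with 2.96, 3.06 and 3.23 CPM, followed in the same dose with CBLB502 by 1.49, 0.441 and 1.4 CPM. At 24 h after 6 Gy the Acot1 mean was 212 times the level that 3 counts over the 3 control libraries would give (0.0145 CPM). It was 101 times that level with 15 Gy and CBLB502, and 34.7 times at 24 h after 15 Gy. No library held fewer than 17 counts without being at 0. A 0 may thus stand for more than 3 counts, and these folds are not lower limits. The zeros and values are uncertain because 33.6% of the 50-base windows of its transcript occur in other genes, with 23.7% in Acot2. Acot2 held 0.2, 0.857 and 1.16 CPM in control and 4.51, 3.82 and 6.95 CPM at 24 h after 6 Gy (2.78 ± 0.66 on the log2 scale, adjusted p = 0.00321, edgeR).

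**Figure D2:**
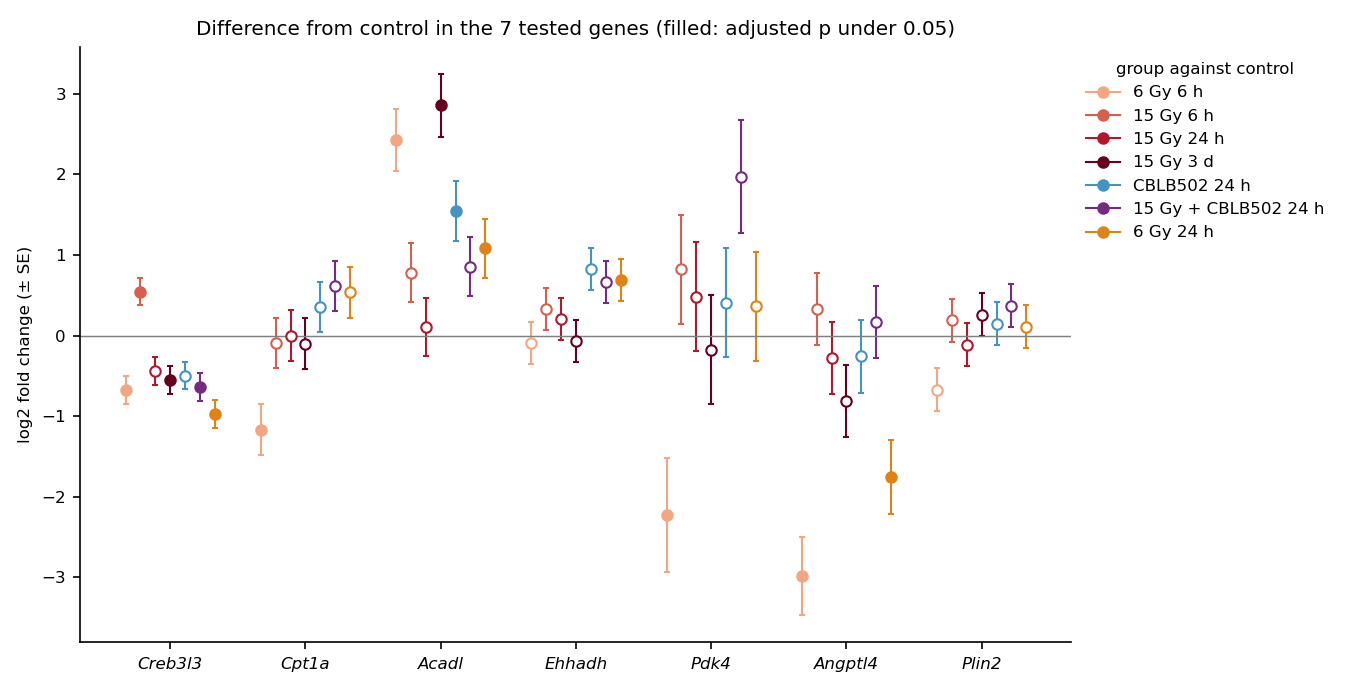
Log2 fold change against control (points; bars are ± 1 SE from the edgeR fit over 27 libraries, n = 3 per group) for the 7 tested genes in 7 treated groups; filled points have an adjusted p under 0.05. Acadl is the one gene with several filled points above 0, and the lowest point is Angptl4 at 6 h after 6 Gy at -2.99.

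Set side by side, 5 of the 7 tested genes were called at 6 h after 6 Gy and 1 of 7 at 6 h after 15 Gy. Against control, 1 of 7 was higher after 6 Gy (Acadl) and 4 were lower (Cpt1a, Pdk4, Angptl4, Creb3l3), while 13.1% of 11118 tested genes were higher and 15.3% lower. The median log2 fold change of the 7 was -0.67, against 0.05 over all genes. After 15 Gy, 1 was higher (Creb3l3) and 0 lower by edgeR, with 12.2% and 16.8% of all genes. Of the 7, 2 had an unadjusted p under 0.05 there (Acadl and Creb3l3, both upward), and DESeq2 called 1 higher and 0 lower. The direct test of 15 Gy against 6 Gy at 6 h called 5 higher and 1 lower, with 20.2% and 23% of all genes. Ehhadh was the exception, at 0.43 ± 0.26 (adjusted p = 0.199, edgeR).

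Along the 15 Gy course at most 2 of the 7 genes were called in any comparison. For 24 h after 15 Gy edgeR and DESeq2 both called 0 of 7, and 1 (Creb3l3) had an unadjusted p under 0.05; 2.63% of all genes were higher than control and 2.31% lower. At 3 d, 1 was higher (Acadl) and 1 lower (Creb3l3), beside 13.9% and 15.6% of all genes. The Creb3l3 call at 3 d was lost without control replicate 1 (adjusted p = 0.0786), control replicate 2 (0.0531), 15 Gy 3 d replicate 1 (0.0564) or replicate 2 (0.0614). Between 6 h and 24 h, 0 rose and 1 fell (Creb3l3), and 18.7% of all genes were higher and 13.5% lower. Between 24 h and 3 d, 1 rose (Acadl) and 0 fell, and 11.2% were higher and 14.1% lower. In both of these time comparisons 1 of 7 had an unadjusted p under 0.05 and DESeq2 called the same 1.

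With CBLB502 alone, 1 of the 7 was higher than control at 24 h (Acadl) and 0 were lower, where 2.48% of all genes were higher and 3.26% lower. At unadjusted p under 0.05 there were 3 (Acadl, Ehhadh and, downward, Creb3l3), and DESeq2 called Acadl and Ehhadh. CBLB502 before 15 Gy called 0 of 7 against 15 Gy alone in edgeR and DESeq2, with Pdk4 the 1 at unadjusted p under 0.05. In that comparison edgeR called 0% of all genes higher and 0% lower, with 867 genes at unadjusted p under 0.05 and 63 called by DESeq2. Against control, 15 Gy with CBLB502 had 0 of 7 higher and 1 lower (Creb3l3), with 8.65% of all genes higher and 8.2% lower; 4 had an unadjusted p under 0.05 and DESeq2 called Pdk4 and Creb3l3. The Creb3l3 call there was lost without control replicate 1 (adjusted p = 0.0643) or 15 Gy with CBLB502 replicate 1 (0.0527).

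At 24 h after 6 Gy, 2 of 7 were higher (Acadl, Ehhadh) and 2 lower (Angptl4, Creb3l3), and 16.6% of all genes were higher and 16.4% lower. These libraries carry the pancreas and fibroblast markers given above, and the part of these in the 4 calls was not tested. Adding CBLB502 to 6 Gy called 0 of 7 in edgeR and DESeq2, with 0 at unadjusted p under 0.05. EdgeR called 0% of all genes higher and 0% lower there, with 303 genes at unadjusted p under 0.05 and 7 called by DESeq2. The interaction of CBLB502 with 15 Gy called 0 of 7 in both tools, with 0 at unadjusted p under 0.05 and 0.153% of all genes higher and 0.072% lower. For 6 Gy it also called 0, with 0.243% and 0.0809% of all genes, while Acadl (-1.61 ± 0.52) and Ehhadh (-0.94 ± 0.37) had an unadjusted p under 0.05 and adjusted p of 0.236 and 0.321 in edgeR. Without control replicate 3 the Acadl interaction was -2.15 with an adjusted p of 0.0435.

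The other genes of fat use, 72 listed and 59 tested, were counted in the same way. In the list of fatty acid uptake, activation and lipid droplets, 0 of 12 rose and 7 fell at 6 h after 6 Gy, beside 13.1% and 15.3% of all genes. Acsl5, which activates long-chain fatty acids in enterocytes, went from 4610, 5140 and 4180 CPM to 1560, 1330 and 1240 CPM (-1.75 ± 0.14, adjusted p = 1.39e-08, edgeR). Fabp2, the intestinal fatty acid binding protein (-1.99 ± 0.33), and the fatty acid transport protein gene Slc27a4 (-1.12 ± 0.20) fell with it. For 15 Gy at 6 h 0 of 12 rose and 1 fell (Fabp2, -1.01; 12.2% and 16.8% of all genes), and between the doses 10 of 12 were higher at 15 Gy and 0 lower, beside 20.2% and 23% of all genes. The fall was not limited to 6 h. At 24 h after 6 Gy 1 of 12 rose and 6 fell, beside 16.6% and 16.4% of all genes. Acsl5 (-0.93), Fabp2 (-1.32) and Slc27a4 (-0.63) were among those lower. At 3 d after 15 Gy 0 of 12 rose and 4 fell, beside 13.9% and 15.6% of all genes. Acsl5, Fabp2 and Slc27a4 are made by enterocytes, whose summed markers were lower at 6 h after 6 Gy, as given above. That part was not tested.

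Of the 17 genes of the carnitine shuttle and mitochondrial oxidation 1 rose and 4 fell at 6 h after 6 Gy, beside the same 13.1% and 15.3%. Acadm, the medium-chain counterpart of Acadl, fell there (-0.73 ± 0.10, adjusted p = 1e-05, edgeR) as Acadl rose. It also fell at 6 h after 15 Gy (-0.62 ± 0.10, adjusted p = 7.59e-05, edgeR), where Acadl did not pass. Between the doses at 6 h Acadm was at 0.11 ± 0.10 (adjusted p = 0.376, edgeR), which did not pass. At 3 d after 15 Gy 2 of 17 rose and 9 fell, with a median of -0.66, beside 13.9% and 15.6% of all genes. Acadm fell from 83.1, 90 and 91.7 CPM to 33.2, 37.6 and 41 CPM (-1.24 ± 0.10, adjusted p = 2.13e-08, edgeR), and Hadh, which takes a later step, fell by 1.26 ± 0.12. Slc25a20, the carnitine-acylcarnitine carrier, rose beside Acadl in both groups, by 1.13 ± 0.21 and by 1.60 ± 0.21 (adjusted p = 0.000289 and 8.52e-06, edgeR). Acadl also passed at 24 h after 6 Gy and with CBLB502 alone. Slc25a20 rose in the first of these (0.74, adjusted p = 0.00923, edgeR) but not with CBLB502 alone (0.04 ± 0.20, adjusted p = 0.939, edgeR). None of the 17 passed in edgeR at 24 h after 15 Gy, with 0 higher and 0 lower, beside 2.63% and 2.31% of all genes. With 15 Gy and CBLB502 3 of 17 were higher than control and 0 lower, among them Acaa2 (1.89 ± 0.48), beside 8.65% and 8.2% of all genes.

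**Figure D3:**
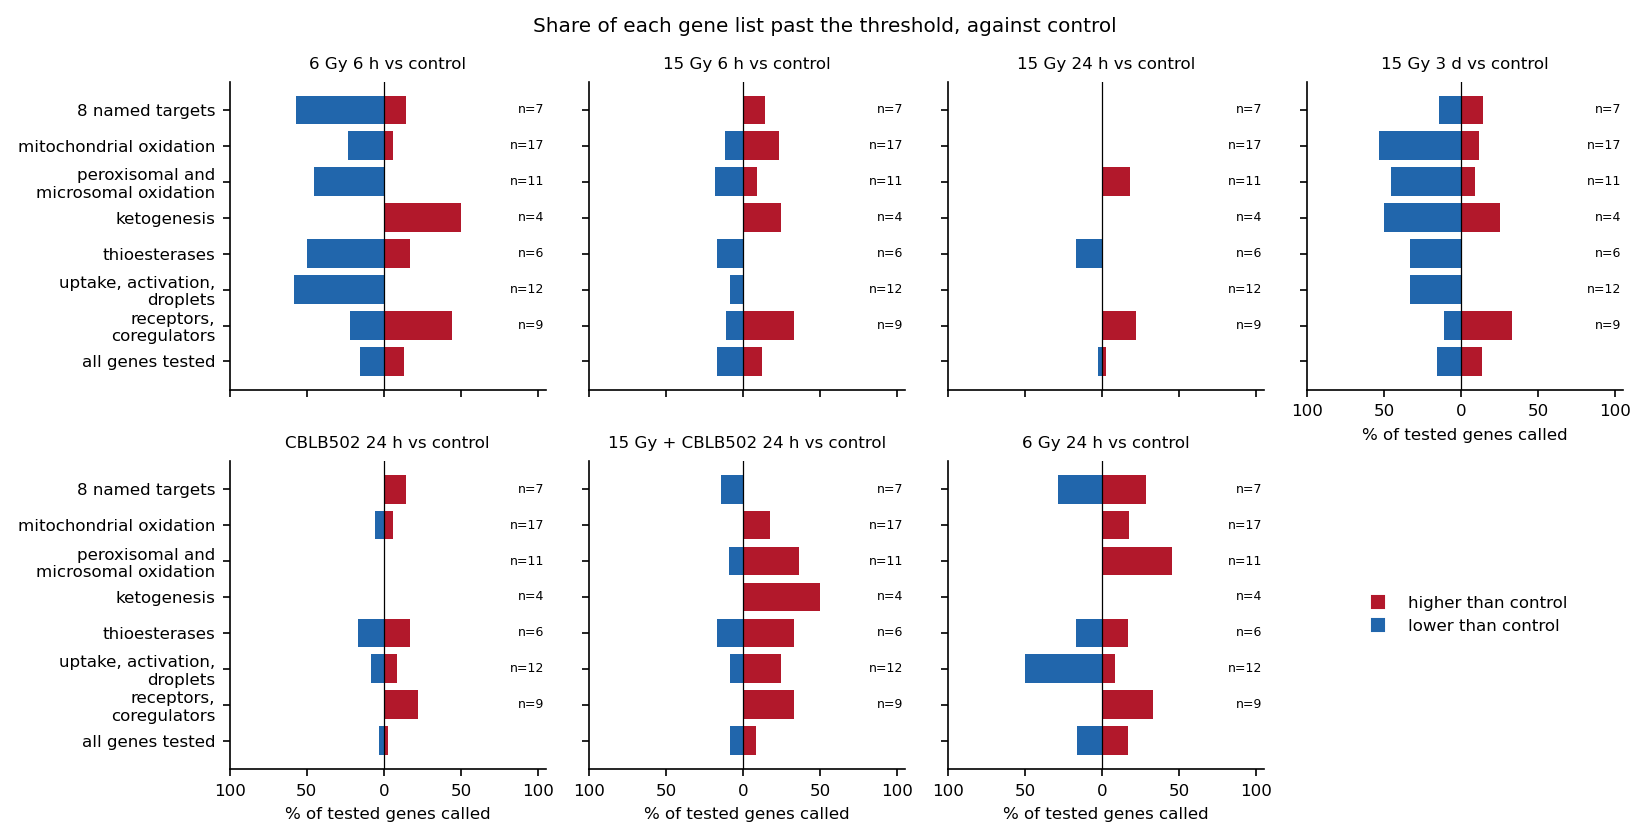
Percent of the tested genes of each list (n at the right of each row) called higher (red, to the right) or lower (blue, to the left) than control by edgeR in 7 comparisons, with all 11118 tested genes in the bottom row. The uptake list reaches 7 of 12 lower at 6 h after 6 Gy and the mitochondrial list 9 of 17 lower at 3 d after 15 Gy, whereas both have no bar at 24 h after 15 Gy.

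Peroxisomal and microsomal oxidation genes, 11 tested, had 0 higher and 5 lower at 6 h after 6 Gy (all genes 13.1% and 15.3%), and 1 higher and 5 lower at 3 d after 15 Gy (13.9% and 15.6%). Abcd3, a peroxisomal fatty acid transporter, fell from 263, 273 and 297 CPM to 68.8, 81.1 and 83.9 CPM at 6 h after 6 Gy (-1.83 ± 0.11, adjusted p = 6.65e-10, edgeR). Hsd17b4, the second bifunctional enzyme of peroxisomes, fell by 1.25 ± 0.15 there and by 1.63 ± 0.15 at 3 d after 15 Gy. In the same 2 comparisons Ehhadh was at -0.09 ± 0.26 and -0.07 ± 0.26. The 6 Gy group at 24 h had 5 of 11 higher and 0 lower, beside 16.6% and 16.4% of all genes. Acaa1b had the smallest adjusted p (1.54 ± 0.25, adjusted p = 0.000186, edgeR) and Cyp4a10 the largest fold change (3.07 ± 1.16, adjusted p = 0.0466, edgeR). Both have near-identical relatives in the genome, so their counts are uncertain. At 24 h after 15 Gy 2 of 11 were higher and 0 lower, beside 2.63% and 2.31% of all genes. These were Crot, which moves acyl groups out of peroxisomes (0.84 ± 0.17, adjusted p = 0.00732, edgeR), and Abcd3 (0.46 ± 0.11, adjusted p = 0.0224, edgeR). At 6 h after 15 Gy 1 of 11 was higher and 2 lower (12.2% and 16.8%). The 2 lower were Crot (-0.58 ± 0.17) and Abcd3 (-0.56 ± 0.11). Among 6 tested thioesterases 1 rose and 3 fell at 6 h after 6 Gy (all genes 13.1% and 15.3%), with Acot12 at -2.74 ± 0.31 and Acot4 at -1.48 ± 0.15, and Acot4 fell by 2.15 ± 0.16 at 3 d after 15 Gy. Acot4 was also the 1 thioesterase called in the interaction of CBLB502 with 15 Gy (1.04 ± 0.21, adjusted p = 0.0404, edgeR). Of all genes, 0.153% were higher and 0.072% lower in that interaction. Against control Acot4 was lower with CBLB502 alone (-0.55 ± 0.15, adjusted p = 0.0376, edgeR) and at 0.004 ± 0.15 at 24 h after 15 Gy. CBLB502 before 15 Gy called 0 of 6 thioesterases against 15 Gy alone, beside 0% of all genes.

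Of the ketogenesis list 4 of 6 genes were tested, and 2 rose and 0 fell at 6 h after 6 Gy (all genes 13.1% and 15.3%). These were Acat1, the mitochondrial thiolase (0.77 ± 0.22, adjusted p = 0.0109, edgeR), and Slc16a1, a transporter of ketone bodies and lactate (0.55 ± 0.18, adjusted p = 0.0241, edgeR). At 6 h after 15 Gy 1 of 4 rose and 0 fell (all genes 12.2% and 16.8%). At 3 d after 15 Gy 1 rose and 2 fell (13.9% and 15.6%). The 2 lower there were Acat1 (-0.66 ± 0.22, adjusted p = 0.027, edgeR) and Bdh1 (-0.41, adjusted p = 0.0392, edgeR). With 15 Gy and CBLB502 2 rose and 0 fell (8.65% and 8.2%). None was called at 24 h after 6 Gy (16.6% and 16.4%), at 24 h after 15 Gy (2.63% and 2.31%) or with CBLB502 alone (2.48% and 3.26%).

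Ppara, the gene of the receptor, held 10.5, 8.94 and 8.74 CPM in control and 1.89, 2.77 and 4.42 CPM at 6 h after 6 Gy. It fell there by 1.63 ± 0.36 on the log2 scale (adjusted p = 0.00181, edgeR), and at 6 h after 15 Gy it was at 9.56, 10.2 and 10.5 CPM, overlapping control (0.10 ± 0.35, adjusted p = 0.858, edgeR). Between the doses at 6 h it was 1.74 ± 0.36 higher after 15 Gy (adjusted p = 0.000576, edgeR). Its other comparisons with control did not pass. Of 9 tested receptors and coregulators 4 were higher and 2 lower at 6 h after 6 Gy (all genes 13.1% and 15.3%). At 6 h after 15 Gy 3 were higher and 1 lower (12.2% and 16.8%). The related receptor genes moved apart at 6 h after 6 Gy. Ppard rose (1.455 ± 0.42, adjusted p = 0.0126, edgeR) and Pparg fell (-1.21 ± 0.38, adjusted p = 0.021, edgeR). Ppargc1b, a coactivator of fat oxidation, was higher than control in 5 of the 7 treated groups tested, for example 1.88 ± 0.36 at 6 h after 6 Gy. Nr0b2 encodes the corepressor SHP and was at 0 in all 3 controls. At 6 h after 6 Gy it held 1.01, 10 and 5.83 CPM, a mean 388 times the level of 3 counts over the control group. Across the treated groups this multiple ran from 110 at 24 h after 15 Gy to 807 at 3 d after 15 Gy. As with Acot1, a 0 may stand for more than 3 counts, so these folds are not lower limits. Nr0b2 had counts in every library outside control.

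**Figure D4:**
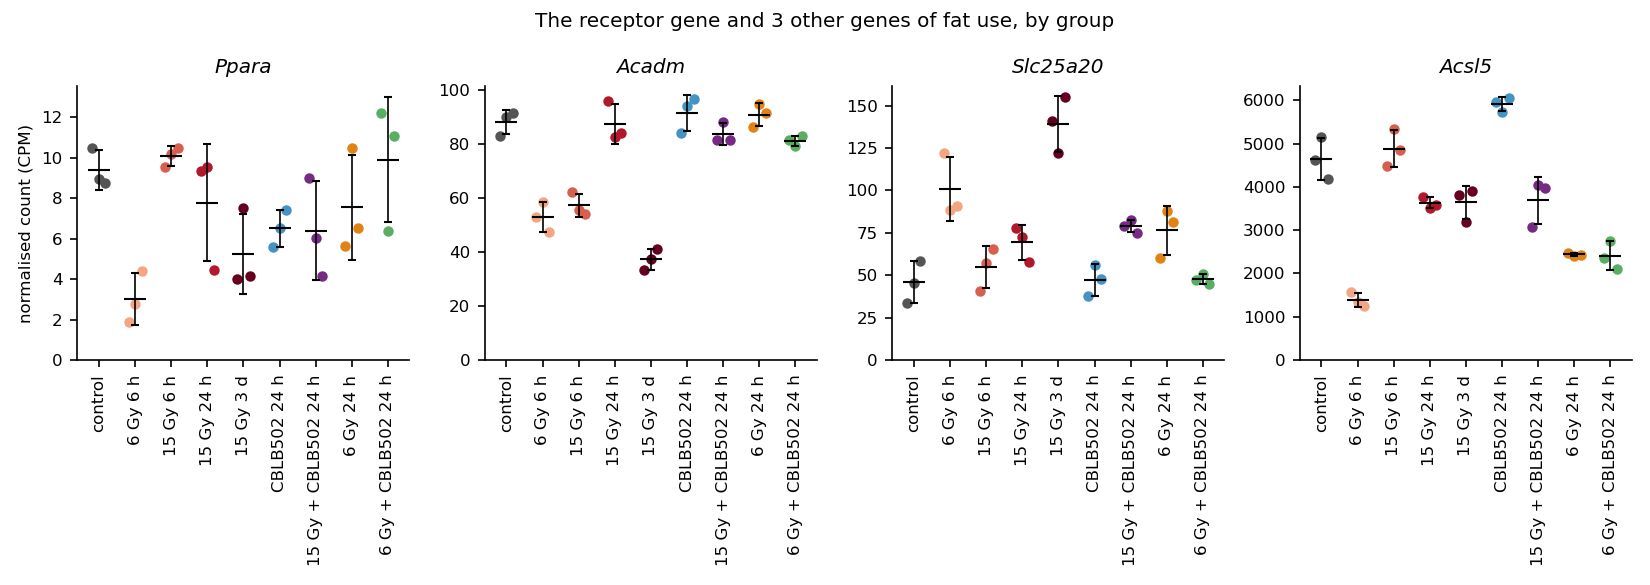
Normalised counts (CPM, linear axes from 0) of Ppara, Acadm, Slc25a20 and Acsl5 in the 9 groups; points are libraries, and the mark and bar are the mean and SD of 3. Ppara and Acsl5 are lowest at 6 h after 6 Gy, Acadm falls to 33.2, 37.6 and 41 CPM at 3 d after 15 Gy, and Slc25a20 is highest at 3 d after 15 Gy with 141, 122 and 155 CPM.

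The pattern over libraries was compared with Pearson's r of log2 CPM across all 27 libraries, which share groups and scaling, as a description. Among the 7 tested genes the highest values were Cpt1a with Ehhadh (0.794) and Cpt1a with Pdk4 (0.709), and the lowest was Angptl4 with Acadl (-0.479). Over the 21 libraries outside 6 Gy at 24 h these were 0.756, 0.726 and -0.612, and Cpt1a with Plin2 was highest (0.758, against 0.675 over 27). Over all tested genes Creb3l3 was most like Creb3 (0.938) and Mfsd6l (0.928), Acadl most like Snx18 (0.928) and Stk39 (0.916), and Ehhadh most like Ank (0.905) and Vdr (0.88). Cpt1a was most like Nqo1 (0.87) and Bmp2k (0.861), Angptl4 most like Ifnlr1 (0.857) and Dgka (0.855), and Pdk4 most like Fchsd2 (0.832) and the fatty acid transport gene Slc27a2 (0.817). Plin2 had no close match, with Ctsl (0.696) and Tbc1d22b (0.695) the nearest. Over the same 21 libraries, these 14 values ran from 0.708 to 0.946.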

How the data were processed

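The 27 libraries of intestinal RNA fall into 9 groups of 3 by their labels. The counts are whole numbers per gene and library, used as deposited. FPKM are the authors' values, and the deposited table writes 1e-04 where a gene has no count. Per the submitters' processing notes Bowtie 0.12.2, HISAT2 2.0, StringTie 1.3.0 and build mm8 were used, in no stated order. The sources used here do not give the strand setting or the annotation. Coordinates equal those of GENCODE vM21 for 94.2% of the identifiers it holds and for all 8 genes, so positions are on GRCm38.

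Testing covered 11118 of 55401 genes, those reaching an FPKM of 1 in 3 or more libraries, in R 4.3.3 with edgeR 4.0.16 (TMM scaling, all 27 libraries in 1 fit, Benjamini-Hochberg adjustment, threshold 0.05). SE is the log2 fold change divided by the root of F. There were 12 comparisons of 2 groups and 2 interactions. The script was tested on simulated data. CPM are counts over the TMM-scaled total. Replicates differed by more than counting error in every group. Alternatives were DESeq2 1.42.0, limma 3.58.1 on log2(FPKM + 1) and log2(FPKM + 0.1), median-ratio scaling, no filter (31513 genes), the compared groups alone, leaving both 24 h groups of 6 Gy out of the fit, the replicate block, and each library left out.

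The 8 genes and the lists were chosen with earlier results of these data known. Named were the 8 genes, up to 4 per list with the smallest adjusted p in a comparison, Ppara, and for each tested gene the 2 others with the highest r; 1 further gene is not reported here. Acot2, beside Acot1, and Cyp4a10 were named after their values were seen.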

Additional observations from a re-analysis of the deposited data

Results flagged for a closer look

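Each of the results here differed between 2 doses or 2 times by a direct test of that difference in edgeR. Between 6 Gy and 15 Gy at 6 h, the log2 difference (15 Gy minus 6 Gy) was 1.07 for Cpt1a, 3.05 for Pdk4, 3.32 for Angptl4, 0.86 for Plin2, 1.22 for Creb3l3 and -1.65 for Acadl. Against control, the 6 Gy values at 6 h were -1.17, -2.23, -2.99, -0.67, -0.67 and 2.43 in the same order of genes. Those at 15 Gy were -0.09, 0.82, 0.33, 0.19, 0.55 and 0.78. Both sets share the control libraries. Within 15 Gy, Creb3l3 was lower at 24 h than at 6 h, at -0.98, and Acadl was higher at 3 d than at 24 h, at 2.75.

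Summed enterocyte markers and the clock score differed between the 2 doses at 6 h as well, and the share of counts from mitochondrial genes ran from 13.7 to 28.7% at 6 Gy and from 4.59 to 9.03% at 15 Gy. Their part in these differences was not tested.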

How the results depend on the processing

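Of 22 changes past the threshold, 12 passed in every alternative run for them and 0 reversed; 42 of 304 alternative values no longer passed. Of 1131 alternative values of changes that had not passed, 25 passed and 56 had the other sign, 0 of these past the threshold. The cause of these shifts was not tested unless a fit has fewer libraries by construction.

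Counts of genes called moved as follows. At 6 h after 6 Gy the count was 5, and 3 in limma on log2(FPKM + 1), with 4 to 5 when each library was left out. At 6 h after 15 Gy it was 1, and 0 with the groups alone (0 to 2 with libraries left out). Between doses at 6 h it was 6 (5 to 6). At 24 h after 15 Gy it was 0, and 1 without the filter, which was Acot1. At 3 d it was 2, and 1 in both limma fits (1 to 3). It was 1 from 6 h to 24 h (1 to 2) and 1 from 24 h to 3 d (1 to 2). For CBLB502 alone it was 1, with 2 in DESeq2 and both limma fits and 0 with the groups alone (0 to 3). For 15 Gy with CBLB502 against control it was 1, with 2 in DESeq2, both limma fits, no filter and the groups alone (0 to 3). At 24 h after 6 Gy it was 4 (2 to 4). The 6 Gy interaction gave 0, and 1 without control replicate 3. Fits without the 6 libraries of 6 Gy at 24 h, and median-ratio scaling, moved none of these counts by over 1.5 times.

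Same-numbered libraries did not pair: in 0 of 12 comparisons did every pair's deviations correlate above 0.1, with pairs from -0.262 to 0.248. The replicate block gave 2 for 15 Gy with CBLB502 against control, adding Pdk4, and moved no other count of the 7 genes by over 1.5 times.

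Over all genes, 15 Gy at 24 h against control had 549 calls in edgeR, 1071 in DESeq2, 262 without the filter, 241 and 306 in limma and 12 with the groups alone. CBLB502 alone had 638, and in the same order 1129, 350, 349, 391 and 56. Leaving the 6 libraries of 6 Gy at 24 h out of the fit gave 292 and 412. With the groups alone, calls went from 3219 to 1532 (15 Gy 6 h), 3273 to 2142 (3 d), 3575 to 2024 (6 h to 24 h), 2813 to 1663 (24 h to 3 d) and 1874 to 1213 (15 Gy with CBLB502). Limma gave 6241 and 6112 in place of 3669 at 24 h after 6 Gy, and 2133 in place of 3219 at 6 h after 15 Gy. DESeq2 called 128 in place of 25 and 158 in place of 36 in the 15 Gy and 6 Gy interactions, and the groups alone 4 and 11. The 6 Gy interaction had 21 with the replicate block and 21 without the filter. Limma on log2(FPKM + 1) moved the median of all genes to 0.45 at 24 h after 6 Gy (0.62 with 0.1), and 93% of its calls were higher against 50.2% in edgeR. The same fit had 73.8% higher against 47.1% at 3 d after 15 Gy and 74.3% against 51.3% for 15 Gy with CBLB502, 62.5% against 44.1% from 24 h to 3 d and 29.2% against 43.3% for CBLB502 alone. The depth of 57.4 to 87.1 M leaves Acot1 at few counts.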
